A study of Mus musculus with 8 samples.

Results

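The core replication-dependent histone genes of the mouse were followed by RNA sequencing in prospermatogonia, which are fetal germ cells of the testis, taken at E17.5, an embryonic day. Members were the protein-coding genes of the deposited table whose symbols begin with Hist1h2a, Hist1h2b, Hist1h3, Hist1h4, Hist2h, Hist3h or Hist4h4, with the linker H1 genes left out. This rule found 61 of the 55401 genes in the table, namely 18 H2A, 18 H2B, 12 H3 and 13 H4 genes. The Hist1 cluster held 48 of them, the Hist2 cluster 10, the Hist3 cluster 2 and the Hist4 locus 1. The libraries, of 1 batch, were made from 5 ng of total RNA after removal of ribosomal RNA. There were 4 libraries labelled KO (Tet1-/-) and 4 labelled WT (Tet1+/+), all at E17.5 and with no treatment named. The sources used here do not give how the cells were isolated, the kind of Tet1 allele or whether the libraries came from separate animals, so p-values measure the spread between these libraries.

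Replication-dependent histone genes encode the core histones that package newly copied DNA, and their transcripts build up in S phase and decay when replication stops. Most of these messenger RNAs carry no poly(A) tail and end instead just after a short conserved stem-loop that is bound by the stem-loop binding protein SLBP. The genes lie in clusters, have no introns as a rule, and exist in many copies that encode the same or nearly the same protein. Replacement histones such as H3.3 and H2A.Z are made throughout the cell cycle from polyadenylated transcripts. At this stage most male germ cells of the mouse testis are held in cell cycle arrest, and TET1 is an oxidase of methylated cytosine that also has roles beyond its enzyme activity. Depletion of ribosomal RNA, unlike selection for poly(A), retains transcripts without a tail.

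The features shared by these genes are shown for a few members on which the results turn. The stem-loops below were read from GENCODE M21 transcripts, in sense orientation, with the stem and loop in capitals. They are shown because the H2A, H2B and H3 forms differ from the H4 form in the stem, and because the H4 genes shown carry the same letters while Hist1h4h rose and Hist1h4c did not pass the test.
Hist1h3b: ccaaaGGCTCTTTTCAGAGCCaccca
Hist2h2ac: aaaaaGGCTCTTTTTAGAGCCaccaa
Hist1h4h: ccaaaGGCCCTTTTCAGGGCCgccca
Hist1h4c: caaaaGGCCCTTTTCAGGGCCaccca
A stem-loop was found in 40 members. The form of Hist1h3b stood in 23 of them, all H2A, H2B or H3 genes, and the form of Hist1h4h and Hist1h4c stood in 7, all H4 genes. Within the last 120 bases of the transcript it was found in 22 of 61 members and in 18 of 21805 other protein-coding genes (0.0826%). The linker H1 genes were counted among these other genes. In the remaining 21 members the annotated transcript either ended at the stop codon (14 members) or held no match (7 members), which says only that these letters are not in the annotated transcript.

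Promoter windows of 250 bases before to 50 bases after the start were matched by symbol for 56 members, from RefSeq on GRCm38.p6. The windows of 3 members are given, in sense orientation, with the CCAAT box, the octamer ATTTGCAT and the TATA box letters TATAAA in capitals, on either strand. They are shown as an H3 gene and an H2A gene that rose and an H4 gene that did not pass the test.
Hist1h3b (chr13:23752095-23752394, plus strand): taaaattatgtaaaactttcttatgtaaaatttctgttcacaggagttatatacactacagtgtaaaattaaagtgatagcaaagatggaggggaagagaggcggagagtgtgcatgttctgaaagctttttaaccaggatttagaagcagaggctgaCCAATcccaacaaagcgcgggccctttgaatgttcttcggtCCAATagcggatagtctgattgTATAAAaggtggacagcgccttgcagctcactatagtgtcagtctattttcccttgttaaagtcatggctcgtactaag
Hist2h2ac (chr3:96220831-96221130, minus strand): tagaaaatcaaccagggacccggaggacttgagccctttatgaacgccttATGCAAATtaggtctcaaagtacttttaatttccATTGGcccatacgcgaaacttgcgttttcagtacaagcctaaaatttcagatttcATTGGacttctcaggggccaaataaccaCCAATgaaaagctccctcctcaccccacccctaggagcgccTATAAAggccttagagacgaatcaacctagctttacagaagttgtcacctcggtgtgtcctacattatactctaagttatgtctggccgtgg
Hist1h4c (chr13:23698409-23698708, minus strand): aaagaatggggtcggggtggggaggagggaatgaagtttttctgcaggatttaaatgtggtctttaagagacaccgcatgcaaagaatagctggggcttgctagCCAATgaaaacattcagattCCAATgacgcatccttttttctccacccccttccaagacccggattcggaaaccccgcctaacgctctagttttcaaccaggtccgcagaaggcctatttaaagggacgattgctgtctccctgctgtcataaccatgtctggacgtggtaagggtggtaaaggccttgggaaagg
The CCAAT letters were present in all 18 H2A, all 16 H2B and all 10 H3 windows and in 3 of 12 H4 windows, against 37.3% of 32794 windows of other genes. TATAAA was present in 31 of 56 member windows (13.5% elsewhere), and 23 bases separate it from the RefSeq start in Hist1h3b. The GENCODE start of that gene, chr13:23752267, lies upstream of these letters. ATTTGCAT was present in 7 H2A and 6 H2B windows and in no H3 or H4 window (1.70% elsewhere). Windows of H2A and H2B genes that start head to head overlap, so the same site can be counted for both genes. By outcome, CCAAT was in 31 of 37 windows of members that rose and in 5 of 8 of those that did not pass, and TATAAA in 24 of 37 and 5 of 8. In both outcomes every window without CCAAT was of an H4 gene, so the CCAAT counts by outcome cannot be told apart from histone type.

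The label was checked first. Tet1 had 129, 145, 75.8 and 147 CPM (counts scaled to library size after TMM adjustment, a trimmed mean over genes) in the libraries labelled KO, against 30.3, 30.2, 32.8 and 34.2 CPM in those labelled WT. Its level thus went against the labels, with a log2 difference of 1.97 (SE 0.178, edgeR with Benjamini-Hochberg adjusted p = 3.03e-06). A count per gene does not show which exons were read, and every direction below refers to the labels as deposited. Total counts ran from 13820764 to 20115250 per library, and TMM scaling factors were 0.885 to 0.984 for the KO label and 1.03 to 1.11 for the WT label. The germ cell markers summed to 2020 to 2498 CPM in the libraries labelled KO and to 1775 to 2136 CPM in those labelled WT. Markers of Sertoli cells summed to 97.4 to 162 CPM against 70.8 to 79.8 CPM, with 4 of 9 tested genes higher and 1 lower. Leydig cell markers stood at 1803 CPM in KO 4, at 14.9 to 22.7 CPM in KO 1 to KO 3 and at 16.5 to 32.5 CPM in the libraries labelled WT. Macrophage markers summed to 6.86 to 12.1 CPM against 13.1 to 16.7 CPM, stroma markers to 135 to 186 CPM against 127 to 187 CPM, endothelial markers to 48.1 to 59.9 CPM against 53.3 to 62.3 CPM, and red blood cell markers to 12.8 to 21.4 CPM against 18.2 to 23.0 CPM. Of 12 tested germ cell markers 6 were higher and 2 lower, and of 5 Leydig cell markers 5 were higher. In 0 of these 5 was every library labelled KO above every library labelled WT. Of 5 macrophage markers 0 were higher and 4 lower, and of 8 stroma markers 2 and 1. Of 4 endothelial markers 1 was higher and 3 were lower, and of 4 red blood cell markers 1 and 1. Over all genes tested 25.3% were higher and 28.2% lower. No marker gene was at 0 in every library. The part of these cells in the results below was not tested, apart from the values without KO 4 that are given beside them. In bulk samples fewer cells of a type and less RNA per cell cannot be told apart.

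Transcripts of the core histone genes were more abundant in the libraries labelled KO. Summed over all 61 members they reached 1945, 1645, 1920 and 1613 CPM in the libraries labelled KO, against 478, 594, 585 and 607 CPM in those labelled WT. The groups did not overlap, and the lowest library labelled KO stood well above the highest labelled WT. The means were 1781 ± 176 CPM and 566 ± 59.4 CPM (SD, n = 4 each), a ratio of 3.15 and a log2 difference of 1.65. Without KO 4 the log2 difference was 1.73. As a share of all counts the members took 0.145% to 0.188% in the libraries labelled KO and 0.0505% to 0.0656% in those labelled WT.

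Single genes were tested with edgeR's quasi-likelihood test, and the threshold was an adjusted p of 0.05 (Benjamini-Hochberg over all 24005 genes tested). Of the 61 members, 50 had enough counts to be tested. Of these, 42 were higher in the libraries labelled KO, where 25.3% of all genes tested were, and 0 were lower, where 28.2% of all genes were. The remaining 8 did not pass. In 41 members every library labelled KO was above every library labelled WT, which held for 23.2% of all genes. The median log2 difference was 2.35 over the 50 members and -0.05 over all genes tested. A member with few counts could be tested only if its level in the higher group was sufficient, so these counts describe the tested members and not the family. With no filter on low counts 55 members were tested, 44 higher and 0 lower, and without KO 4 the count was 42 of 50. Of the tested members, 41 passed with a rise of 1 or more on the log2 scale, as did 8.78% of all genes tested.

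**Figure D1:**
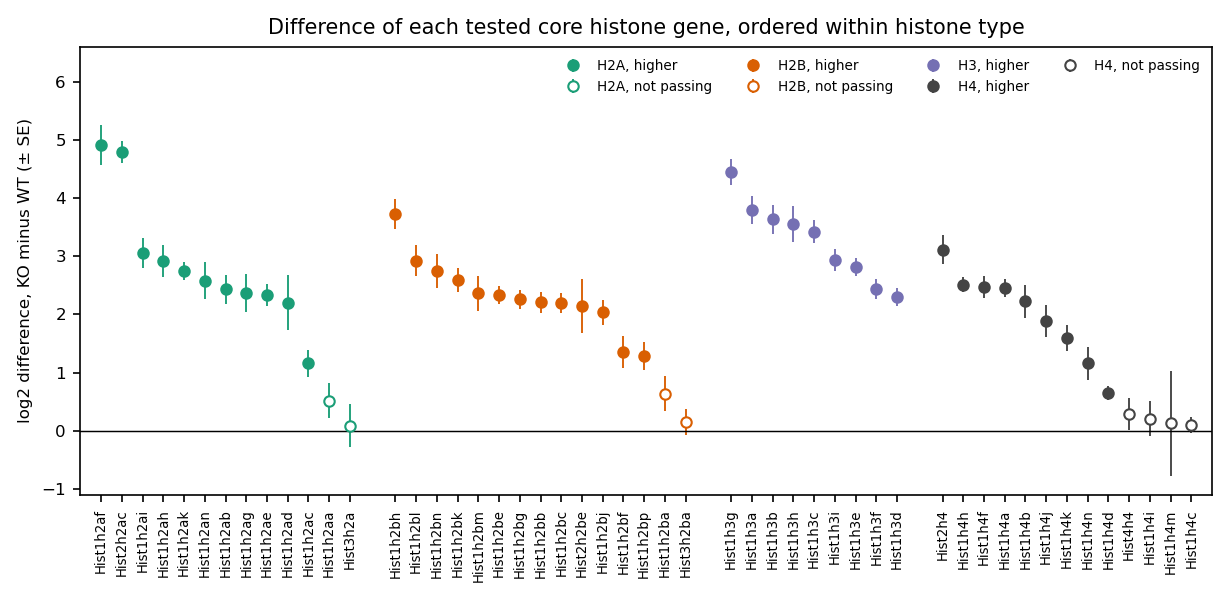
Log2 difference (libraries labelled KO minus those labelled WT, with its SE) of the 50 tested core histone genes, ordered within each histone type. Filled points passed at an adjusted p under 0.05 and open points did not; the differences run from 0.09 for Hist3h2a to 4.91 for Hist1h2af, and none is below 0 under this scaling.

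The size of the difference varied among the histone types, and the gaps between types were not tested. Summed H3 transcripts were 8.00-fold higher, H2A transcripts 4.82-fold, H2B transcripts 4.28-fold and H4 transcripts 1.90-fold. With only members that have 50% or more of their 50-base windows in no other annotated transcript, the log2 difference of the H2A sum was 1.18 in place of 2.27, below that of the H2B sum at 1.99 (2.10 with all its members). H3 genes gave 370, 340, 369 and 306 CPM in the libraries labelled KO, against 35.9, 44.2, 49.7 and 43.4 CPM in those labelled WT. H4 genes gave 726, 618, 736 and 574 CPM in the libraries labelled KO, against 301, 387, 349 and 359 CPM in those labelled WT. The groups were separate for each of the 4 types, and the ratio of the means was largest for H3 and smallest for H4. All 9 tested H3 genes were higher (median log2 difference 3.42), as were 11 of 13 H2A genes (2.43), 13 of 15 H2B genes (2.21) and 9 of 13 H4 genes (1.59).

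**Figure D2:**
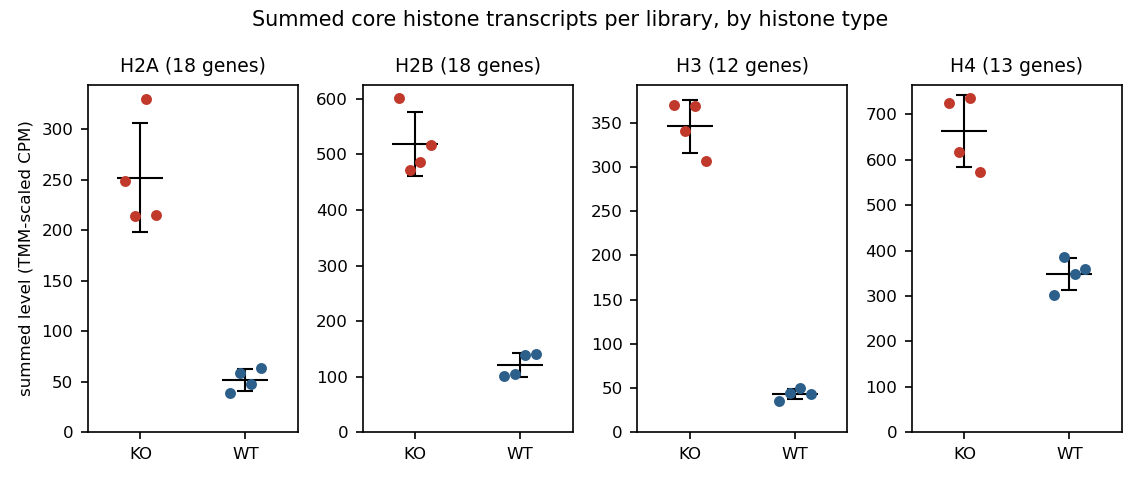
Summed level (TMM-scaled CPM, each axis from 0) of the H2A, H2B, H3 and H4 genes in each library, with labelled KO left and labelled WT right. Points are libraries, and the bar and whiskers are the mean and SD (n = 4); the means are 252 and 52.3 CPM for H2A, 519 and 121 CPM for H2B, 346 and 43.3 CPM for H3, and 663 and 349 CPM for H4.

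The 4 types are used in equal numbers in the nucleosome, so their relative levels were compared after division by exon length. On that scale, CPM per kilobase of exon, H4 genes took 34.2 ± 1.47% (SD, n = 4) of core histone transcripts in the libraries labelled KO and 54.0 ± 4.41% (SD, n = 4) in those labelled WT. H3 genes took 16.6 ± 0.774% and 6.64 ± 0.752%. H2A genes took 18.1 ± 2.68% and 12.2 ± 1.53%, and H2B genes 31.1 ± 3.28% and 27.1 ± 3.70%. The ranges of the groups were separate for H4, with 32.2% to 35.6% in the libraries labelled KO and 49.8% to 59.4% in those labelled WT. They were also separate for H3, with 16.1% to 17.8% against 5.97% to 7.69%, and for H2A, with 16.4% to 22.1% against 10.9% to 14.3%. H2B overlapped. These shares leave out the transcripts of members whose reads were not counted, most of them in the Hist2 cluster. Every H2A gene has an annotated gene on the opposite strand over its exons. Of the other types only Hist1h4b, Hist2h2bb and Hist2h3b have. The strand setting is not given, so H2A genes may have lost more reads, which was not tested. Annotated exon lengths ran from 312 to 4446 bases, so these shares also depend on how each end is annotated.

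Among the H2A genes, which encode the histone that pairs with H2B in the nucleosome, Hist1h2ak (chr13:21753435-21753827, minus strand) had the most counts. It had 64.3, 46.0, 74.4 and 50.6 CPM in the libraries labelled KO, against 8.66, 8.95, 8.62 and 8.80 CPM in those labelled WT. The values of the libraries labelled WT lay close together, and all those labelled KO were above them. The log2 difference was 2.75 (SE 0.158, edgeR adjusted p = 1.37e-07). Hist1h2ab, the H2A gene with the next most counts, averaged 31.2 ± 4.91 CPM and 5.82 ± 2.43 CPM (SD, n = 4 each), a log2 difference of 2.43 (SE 0.243, edgeR adjusted p = 6.34e-06).

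The 2 H2A genes with the largest differences were under 1 CPM in the libraries labelled WT. Hist2h2ac (chr3:96220361-96220880, minus strand), whose promoter is printed above, had 18.2, 20.03, 18.9 and 18.7 CPM in the libraries labelled KO, against 0.768, 0.581, 0.584 and 0.777 CPM in those labelled WT. Both groups were tight and far apart, with a log2 difference of 4.80 (SE 0.194, edgeR adjusted p = 5.78e-09). Hist1h2af (chr13:23533906-23534304, plus strand) had 11.5, 11.9, 16.2 and 9.96 CPM in the libraries labelled KO, against 0.154, 0.407, 0.341 and 0.777 CPM in those labelled WT. This is a log2 difference of 4.91 (SE 0.343, edgeR adjusted p = 4.39e-07), on 29 counts in the 4 libraries labelled WT together. Of its 50-base windows 6.00% occurred in no other annotated transcript, so reads of near-identical genes may be assigned to it or lost from it, while for Hist2h2ac that share was 45.0%.

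H2B, the partner of H2A in the nucleosome, was represented by 15 tested genes. Hist1h2bb (chr13:23746734-23747241, plus strand) had the most counts, with 95.8, 89.1, 73.4 and 92.9 CPM in the libraries labelled KO, against 15.2, 14.2, 23.8 and 23.0 CPM in those labelled WT. The log2 difference was 2.21 (SE 0.174, edgeR adjusted p = 1.18e-06), with no overlap. Hist1h2bg averaged 70.8 ± 3.74 CPM and 14.8 ± 3.67 CPM (SD, n = 4 each), a log2 difference of 2.26. Hist1h2bh (chr13:23541714-23543392, minus strand) differed most, with 17.8, 18.04, 9.15 and 15.04 CPM in the libraries labelled KO, against 1.08, 0.871, 1.31 and 1.23 CPM in those labelled WT. KO 3 was the lowest of its group and still far above the libraries labelled WT. The log2 difference was 3.73 (SE 0.260, edgeR adjusted p = 4.39e-07), and that of Hist1h2bl, the next largest, was 2.93 (SE 0.273, edgeR adjusted p = 3.86e-06).

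H3 genes encode 2 proteins, H3.1 and H3.2, which differ by a single residue and were told apart here by the codon at that residue. The 4 H3.1 genes summed to 81.8 ± 10.03 CPM in the libraries labelled KO and 6.30 ± 1.22 CPM in those labelled WT (SD, n = 4 each), a ratio of 13.0. The 6 genes classed as H3.2 summed to 264 ± 20.8 CPM and 36.9 ± 4.77 CPM (SD, n = 4 each), a ratio of 7.16. Hist2h3b, counted among these 6, had 0 counts in every library. Hist2h3c1 and Hist2h3c2 were left unclassed, because no full H3 reading frame was picked out in their transcripts. Hist1h3b (chr13:23752267-23752886, plus strand), an H3.2 gene with its stem-loop and promoter given above, had 76.3, 76.4, 85.1 and 70.3 CPM in the libraries labelled KO, against 4.92, 3.25, 9.54 and 6.99 CPM in those labelled WT. It rose by 3.63 on the log2 scale (SE 0.246, edgeR adjusted p = 3.94e-07). Hist1h3g (chr13:23535422-23535951, plus strand), an H3.1 gene, had 27.4, 26.0, 24.7 and 23.5 CPM in the libraries labelled KO, against 1.28, 0.581, 1.31 and 1.42 CPM in those labelled WT. Its log2 difference of 4.46 (SE 0.225, edgeR adjusted p = 4.37e-08) was the largest of the H3 genes, and that of Hist1h3a, another H3.1 gene, was 3.79 (SE 0.237, edgeR adjusted p = 2.14e-07). Hist1h3d, an H3.2 gene, had the smallest, 2.30 (SE 0.147, edgeR adjusted p = 2.42e-07), from 66.4 ± 7.30 CPM and 13.5 ± 2.41 CPM (SD, n = 4 each).

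H4 genes, which all encode the same protein, had differences spread between 0.10 for Hist1h4c and 3.11 for Hist2h4 on the log2 scale. Between the genes described below lay Hist1h4n, Hist1h4k, Hist1h4j, Hist1h4b, Hist1h4a and Hist1h4f, which rose by 1.16, 1.59, 1.89, 2.22, 2.45 and 2.48 on the log2 scale. Hist1h4h (chr13:23531050-23531519, plus strand) had 77.8, 65.4, 55.0 and 66.5 CPM in the libraries labelled KO, against 12.1, 12.2, 11.7 and 10.4 CPM in those labelled WT. It rose by 2.51 on the log2 scale (SE 0.131, edgeR adjusted p = 5.64e-08). Hist2h4 (chr3:96261682-96263311, minus strand) had 19.1, 11.5, 13.1 and 13.5 CPM in the libraries labelled KO, against 1.13, 1.98, 1.46 and 2.07 CPM in those labelled WT. Its log2 difference was 3.11 (SE 0.245, edgeR adjusted p = 1.18e-06), the largest of the H4 genes.

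Hist1h4d (chr13:23581598-23582735, plus strand) was the member with most counts of all. It had 260, 233, 284 and 206 CPM in the libraries labelled KO, against 135, 168, 155 and 169 CPM in those labelled WT. The groups were separate, but the log2 difference was 0.65 (SE 0.119, edgeR adjusted p = 5.49e-04), a smaller step than in the other members that passed. Hist1h4c (chr13:23697635-23698454, minus strand) had 74.1, 68.8, 77.3 and 72.4 CPM in the libraries labelled KO, against 53.4, 89.7, 62.7 and 67.4 CPM in those labelled WT. WT 2 was above every library labelled KO, and the log2 difference of 0.10 (SE 0.140, edgeR adjusted p = 0.571) did not pass. Hist1h4h and Hist1h4c carry the same stem-loop letters, and the gap between their differences was not tested.

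Of all H4 counts, scaled to CPM, Hist1h4d gave 35.8% to 38.6% in the libraries labelled KO and 43.5% to 47.1% in those labelled WT. Together with Hist1h4c, Hist1h4i and Hist4h4 it gave 53.6% to 60.5% and 76.2% to 81.7%. Their log2 differences of 0.65, 0.10, 0.21 and 0.29 were below that of the H4 sum, 0.93. A lower share in the libraries labelled KO thus follows from the choice of these genes. Hist1h4m, at 0.13, was not among them. Per kilobase of exon the highest H4 genes were Hist1h4k and Hist1h4d in the libraries labelled KO (232 and 216 CPM per kilobase) and Hist1h4d and Hist1h4c in those labelled WT (138 and 83.3 CPM per kilobase). This order depends on the annotation, as Hist1h4k is annotated with 312 bases, ending at the stop codon, and Hist1h4d with 1138. Before this division they averaged 72.3 and 245.5 CPM in the libraries labelled KO. With Hist1h4d left out, the sum over the other 60 members was 1535 ± 147 CPM and 409 ± 44.7 CPM (SD, n = 4 each), a log2 difference of 1.91. This setting was chosen after the data were seen.

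**Figure D3:**
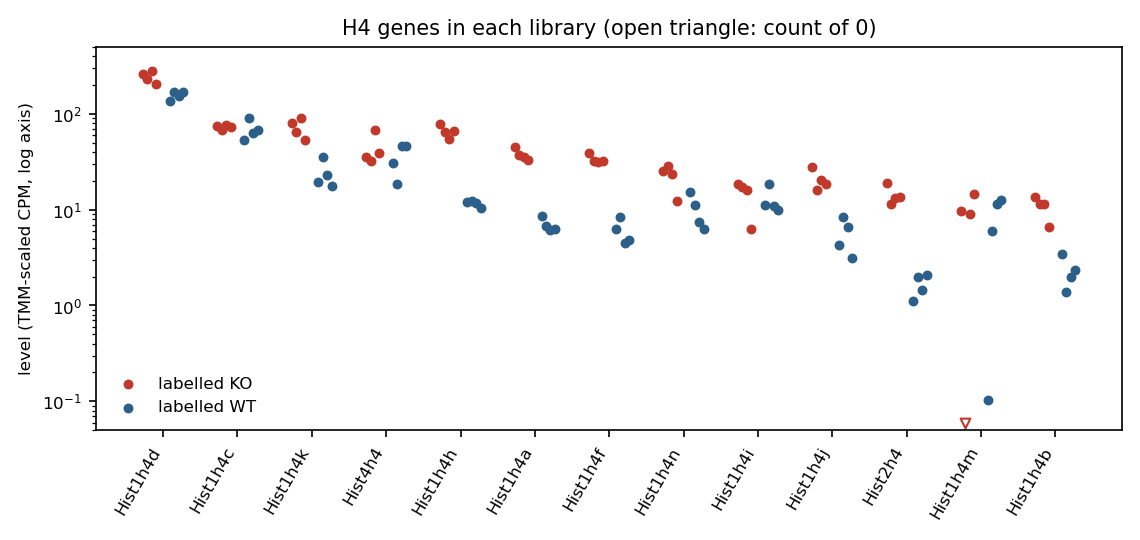
Level (TMM-scaled CPM, log axis) of the 13 H4 genes in each library, ordered by mean level, with libraries labelled KO left of those labelled WT for each gene. The groups overlap for Hist1h4c, Hist4h4, Hist1h4n, Hist1h4i and Hist1h4m, and the open triangle marks a count of 0 for Hist1h4m in KO 2.

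The 8 tested members that did not pass were Hist1h4c, Hist1h4i, Hist1h4m, Hist4h4, Hist3h2a, Hist3h2ba, Hist1h2aa and Hist1h2ba. Hist4h4 (chr6:136801553-136804415, minus strand), the only member on its chromosome, had 35.9, 32.0, 67.7 and 38.8 CPM in the libraries labelled KO, against 31.0, 18.5, 46.3 and 46.8 CPM in those labelled WT (log2 difference 0.29, SE 0.279, edgeR adjusted p = 0.402). Hist1h4i had 18.8, 17.3, 16.2 and 6.23 CPM in the libraries labelled KO, against 11.2, 18.5, 10.9 and 10.03 CPM in those labelled WT (log2 difference 0.21, SE 0.294, edgeR adjusted p = 0.569). In both genes the groups were interleaved. The Hist3 genes on chromosome 11 were low. Hist3h2a had 1.18 to 3.05 CPM in the libraries labelled KO and 1.33 to 2.90 CPM in those labelled WT, and Hist3h2ba had 3.86 to 7.69 CPM and 5.16 to 6.10 CPM. Their log2 differences were 0.09 (SE 0.372) and 0.14 (SE 0.224), with edgeR adjusted p of 0.860 and 0.615. Hist3h2a overlaps Trim17 on the same strand, so its reads can be shared with that gene. Under upper-quartile scaling the differences of Hist3h2a, Hist3h2ba, Hist1h4c, Hist1h4i and Hist1h4m were below 0, at -0.16, -0.10, -0.14, -0.03 and -0.10 on the log2 scale, and did not pass.

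Hist1h2aa and Hist1h2ba encode TH2A and TH2B, the H2A and H2B of the testis that later stages of spermatogenesis use in large amounts. They lie head to head at the edge of the Hist1 cluster on chromosome 13. Hist1h2ba had 28.7, 12.4, 33.0 and 17.2 CPM in the libraries labelled KO, against 12.5, 22.7, 13.0 and 10.3 CPM in those labelled WT. Hist1h2aa had 16.2, 8.40, 23.7 and 9.64 CPM in the libraries labelled KO, against 8.55, 14.9, 8.42 and 8.54 CPM in those labelled WT. The same libraries were high for both genes, KO 1, KO 3 and WT 2. The log2 differences of 0.64 (SE 0.298, edgeR adjusted p = 0.0858) and 0.52 (SE 0.304, edgeR adjusted p = 0.167) did not pass. Without KO 2 they were 0.89 and 0.75 (edgeR adjusted p = 0.0153 and 0.0458), and without WT 2 they were 0.93 and 0.77 (edgeR adjusted p = 0.0140 and 0.0483). Both also passed with no filter on low counts, and Hist1h2ba with DESeq2, so these calls depend on the libraries, the filter and the tool.

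Hist1h4m (chr13:21811746-21812147, plus strand) was irregular. It had 147, 0, 121 and 225 counts in the libraries labelled KO and 2, 104, 235 and 197 counts in those labelled WT. KO 2 and WT 1 thus had almost none, while the other 6 libraries had over 100. In the whole table it was the only gene with 2 or fewer counts in those libraries and 50 or more in each of the other 6. Of its 50-base windows 10.2% were its own and 89.8% occurred in Hist1h4n. Hist1h4n had 25.1, 28.4, 23.8 and 12.4 CPM in the libraries labelled KO, against 15.2, 11.2, 7.40 and 6.28 CPM in those labelled WT. Hist1h4n was thus highest of its group in KO 2 and in WT 1, where Hist1h4m had almost no counts. Whether reads were assigned to one copy in place of the other was not tested. A log2 difference of 0.13 (SE 0.905, edgeR adjusted p = 0.917) was obtained with this spread.

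By position, the members formed 5 runs of genes. The run chr13:21715763-22043676 had 16 of 18 tested members higher, with a summed log2 difference of 2.04, and the run chr13:23531050-23934851 had 23 of 26, with 1.59. In the Hist2 run on chromosome 3 all 3 tested members were higher. Its sum was 39.8, 33.5, 33.3 and 33.9 CPM in the libraries labelled KO, against 2.51, 2.90, 2.34 and 3.37 CPM in those labelled WT, a ratio of 12.6 (log2 difference 3.66, or 2.99 with only members that have 50% or more windows of their own). At the Hist3 run on chromosome 11 0 of 2 passed, and the sums were 5.27 to 10.7 CPM against 6.54 to 9.003 CPM. Of 7 tested protein-coding genes of other families that lie inside these runs, 0 were higher and 3 were lower. Over all genes tested 25.3% were higher and 28.2% lower, and 7 genes are too few to set apart from those shares. These 3 were the transporter genes Slc17a1 and Slc17a2, with log2 differences of -1.70 and -2.84, and Pom121l2 with -1.41, all under 3 CPM. Zfp184, a zinc finger gene named after its values were seen, had 57.7 ± 6.71 CPM and 59.6 ± 7.90 CPM (SD, n = 4 each) and did not pass (edgeR adjusted p = 0.768).

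Many H2A and H2B genes start head to head and share the sequence between them. There were 12 such pairs, with starts 176 to 306 bases apart, and in 10 of them both genes were tested. Both genes were higher in 9 pairs and neither passed in 1, Hist1h2aa with Hist1h2ba, and in no pair did a single gene pass. Among all tested genes of these types 11 of 13 H2A and 13 of 15 H2B genes were higher, so the count is not read as a property of the pairs. The difference was larger for the H2A gene in 7 of 10 pairs. Hist1h2ak and Hist1h2bn had log2 differences of 2.75 and 2.75. Hist2h2ac and Hist2h2be were far apart, at 4.80 (SE 0.194) and 2.14 (SE 0.469), as were Hist1h2an and Hist1h2bp, at 2.58 (SE 0.320) and 1.29 (SE 0.239). In Hist1h2ac and Hist1h2bc the order was turned, at 1.16 (SE 0.232) and 2.19 (SE 0.173). The differences within pairs were not tested.

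**Figure D4:**
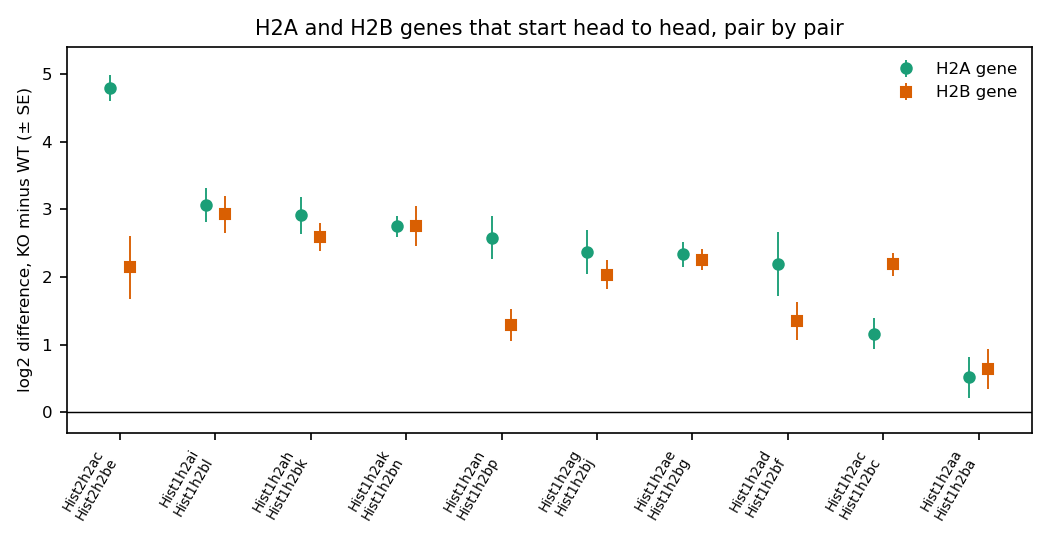
Log2 difference (labelled KO minus labelled WT, with its SE) of the H2A gene (circle) and the H2B gene (square) of the 10 head-to-head pairs with both genes tested, ordered by the H2A gene. Hist2h2ac, at 4.80, stands above Hist2h2be, at 2.14, and the testis pair Hist1h2aa and Hist1h2ba is lowest.

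The annotated 3′ end varied among the members. In 18 of them the annotated transcript ran more than 100 bases past the stem-loop, in 22 it ended within 100 bases of it, and this limit was chosen after the data were seen. Of the tested members with long ends 11 of 16 were higher, with a median log2 difference of 2.07, and 5 of the 8 members that did not pass were among them. Of those with short ends 17 of 18 were higher, with a median of 2.37. The exception was Hist1h4m, which shares most of its windows with Hist1h4n. Among the H4 genes 3 of 6 with long ends (median 0.47) and 4 of 5 with short ends (median 2.22) were higher, among the H2A genes 2 of 3 (1.16) and 4 of 4 (2.40), and among the H3 genes 3 of 3 (2.44) and 3 of 3 (3.63). For H2B the medians ran the other way, 2.30 over 4 genes with long ends and 2.12 over 6 with short ends. Hist1h2be, among those with long ends, overlaps the linker gene Hist1h1e on the same strand, so its reads can be shared with that gene. Long ends did not go with a small difference in every member. Hist1h2bh, with 1214 bases past the stem-loop, differed by 3.73, Hist2h4, with 1257, by 3.11, and Hist1h3d, with 752, by 2.30, all on the log2 scale. Hist1h4c, Hist1h4i, Hist1h4d and Hist4h4 had 454, 330, 770 and 2445 such bases. A count per gene does not show whether reads came from beyond the stem-loop, and no test of end length was made.

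**Figure D5:**
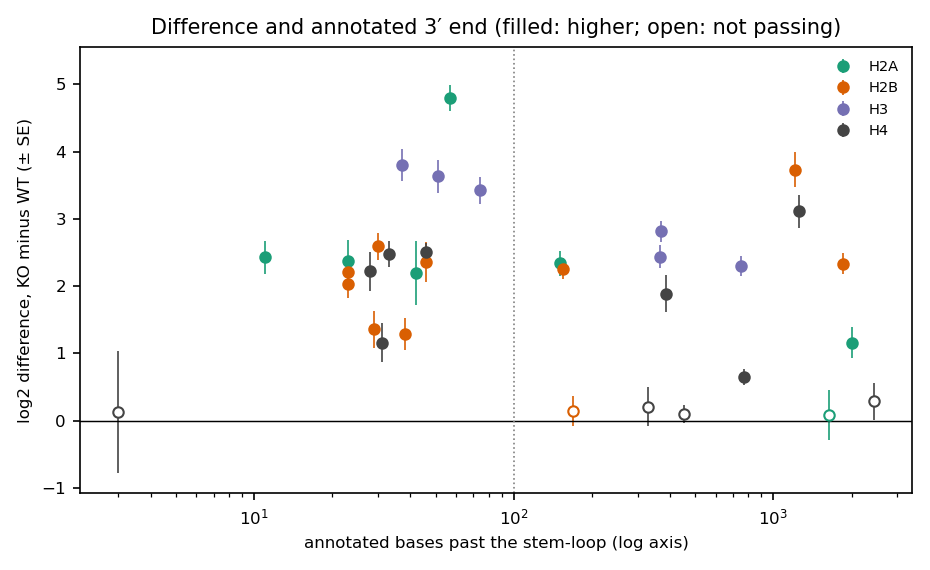
Log2 difference (labelled KO minus labelled WT, with its SE) of the 34 tested members with a stem-loop against the annotated bases past it (log axis), coloured by histone type. Points right of the dotted line at 100 bases include 5 of the 6 open points, members that did not pass, beside Hist1h2bh at 3.73 and Hist2h4 at 3.11.

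The 11 members that were not tested were Hist1h2ao, Hist1h2ap, Hist1h2bq, Hist1h2br, Hist2h2aa1, Hist2h2aa2, Hist2h2ab, Hist2h2bb, Hist2h3b, Hist2h3c1 and Hist2h3c2. They had at most 6 counts in any library, and 6 of them had 0 in every library. In each library a count of 0 allows up to 3 counts, or 0.146 to 0.221 CPM. Little of their sequence was their own: 0% to 36.5% of their 50-base windows occurred in no other annotated transcript (median 2.68%), against 6.00% to 100% in the tested members (median 50.6%). The sources used here do not say how reads that match several genes were counted, so a count of 0 does not show that these genes were silent. Among the tested members, 20 of 27 with at least 50% windows of their own were higher (summed log2 difference 1.33), as were 22 of 23 with less (2.45). Hist2h3b and Hist2h2bb lie within the opposite-strand gene Gm20628, which had 1.47 ± 0.444 CPM and 1.79 ± 0.208 CPM (SD, n = 4 each).

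Linker histones of the H1 family, which bind the nucleosome where DNA enters and leaves, were set beside the core histone genes. Of 10 tested 8 were higher, 1 was lower and 1 did not pass, with a median log2 difference of 2.22. Over all genes tested 25.3% were higher and 28.2% lower. Hist1h1b had 155, 129, 107 and 127 CPM in the libraries labelled KO, against 4.10, 4.42, 6.23 and 4.53 CPM in those labelled WT (log2 difference 4.74, SE 0.168, edgeR adjusted p = 3.20e-09). Hist1h1c and Hist1h1d differed by 3.57 and 3.91 (edgeR adjusted p = 5.78e-09 and 6.54e-09). The oocyte gene H1foo, named after its values were seen, was the lower one, with 0.557 ± 0.338 CPM and 1.51 ± 0.799 CPM (SD, n = 4 each). Among 11 tested replacement histone genes 8 passed as higher and 0 as lower. Their median log2 difference was 0.76, and the gap to the core histone genes was not tested. H2afx, whose product marks DNA breaks when phosphorylated, rose by 2.36 (SE 0.139, edgeR adjusted p = 1.50e-07), H2afy, for macroH2A, by 1.60 and H2afz, for H2A.Z, by 0.91 on the log2 scale. The H3.3 genes, also named after their values were seen, gave a log2 difference of 0.43 for H3f3b (edgeR adjusted p = 0.0347) and -0.28 for H3f3a (edgeR adjusted p = 0.0833).

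Genes that transcribe, process and degrade histone messenger RNA were examined beside them. Of 37 tested 20 were higher, 1 was lower and 16 did not pass, with a median log2 difference of 0.36. That is 54.1% higher, where 25.3% of all genes tested and 30.8% of other protein-coding genes were. The 3 with the lowest p were Snrpd3, a protein of the Sm ring, at 1.40 (SE 0.126), the transcription factor gene Yy1 at 1.08 (SE 0.105), and Upf1, a helicase of histone messenger RNA decay, at 1.28 (SE 0.130), with edgeR adjusted p between 3.02e-06 and 6.85e-06. The gene that was lower was Cpsf2, of the cleavage complex (log2 difference -0.34, edgeR adjusted p = 0.0253). Further genes were singled out after their values were seen. Slbp had 92.4, 63.4, 71.9 and 79.0 CPM in the libraries labelled KO, against 32.2, 31.6, 37.1 and 35.0 CPM in those labelled WT, a log2 difference of 1.17 (SE 0.126, edgeR adjusted p = 1.09e-05). Npat, the activator of histone gene transcription in S phase, differed by 0.83 and Casp8ap2 (FLASH), a factor of histone 3′ end cleavage, by 0.68, both passing. Lsm11, of the U7 particle, and Eri1, the nuclease that trims the stem-loop end, had log2 differences of -0.03 and 0.04 and did not pass (edgeR adjusted p = 0.875 and 0.776).

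Histone chaperones and carriers were higher in 17 of 22 genes and lower in 2, with a median of 0.90. For this list and those that follow, the shares over all genes tested were 25.3% higher and 28.2% lower. Nasp, the chaperone that protects the pool of soluble H3 and H4, averaged 436 ± 17.3 CPM and 84.4 ± 11.2 CPM (SD, n = 4 each), a log2 difference of 2.37 (SE 0.113, edgeR adjusted p = 2.49e-08). Chaf1a, of the assembly factor CAF-1, and Npm1 rose by 1.42 and 1.21. The lower genes were Ubn1 and Hat1, with differences of -0.43 and -0.48. Genes of DNA replication and S phase were higher in 40 of 45, with 1 lower (Prim2, -0.34) and a median of 0.94. Rrm2, a subunit of ribonucleotide reductase, differed by 2.97, Uhrf1 by 2.05 and Ccna2 by 1.87. Genes of mitosis were higher in 18 of 20 with a median of 1.59, among them Mki67 at 3.00, Aurkb at 2.59 and Kif11 at 1.72. Summed over each list, S phase genes gave 4365 to 4731 CPM in the libraries labelled KO and 2206 to 2831 CPM in those labelled WT, and mitosis genes 4326 to 4832 CPM and 1690 to 2300 CPM. The edgeR adjusted p of the genes named as higher in these 3 lists was 4.05e-06 or lower. Their part in the histone result was not tested.

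Other short or intron-poor transcripts were set beside the members as a description. Over all genes tested 25.3% were higher and 28.2% lower. Of 441 tested single-exon protein-coding genes that are no member, 146 were higher and 83 lower (33.1% higher). Of 236 tested protein-coding genes with exon lengths between the members' quartiles, 54 were higher and 52 lower, and of 5133 genes with mean levels between the members' quartiles 1931 were higher and 1276 lower. Short structured RNAs, which also lack a poly(A) tail, were higher in 1 of 14 tested, lower in 0, and had a median log2 difference of 0.31. The gene that passed was Rn7s2, of the signal recognition particle (0.80, edgeR adjusted p = 0.00313). Rn7sk, the abundant RNA that holds the elongation factor P-TEFb, had 7015 ± 681 CPM and 7124 ± 401 CPM (SD, n = 4 each) and did not pass (edgeR adjusted p = 0.885). Of the 3 annotated pseudogenes with such symbols 1 was tested, Hist3h2bb-ps, with 2.36 ± 0.731 CPM and 2.36 ± 0.698 CPM (SD, n = 4 each).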

How the data were processed

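RNA sequencing was done on 8 libraries of E17.5 mouse prospermatogonia, 4 labelled KO and 4 labelled WT. Per the labels, RNA was extracted with TRIzol, treated with DNase I and made into ribosomal RNA-depleted libraries with molecular identifiers (UMIs). The authors deposited raw counts per gene that had not been normalized. The mouse build mm10 and the tools DESeq2, edgeR, featureCounts 1.5.0, STAR and Trim Galore are listed in the submitters' processing notes. The sources used here do not give the strand setting, the annotation release, the use of the UMIs or the treatment of reads that match several genes, and genes that share sequence or overlap can share or lose reads. Intervals and the limit of 3 counts behind a count of 0 cover counting error only.

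Identifiers were matched to GENCODE M21 without their version (55141 of 55401, on GRCm38). Counts were fitted with edgeR 4.0.16 in R 4.3.3 (filterByExpr, TMM scaling, quasi-likelihood test, genotype as the only term, Benjamini-Hochberg adjustment over 24005 genes). Differences are labelled KO minus labelled WT. Levels are TMM-scaled CPM with the SD over 4 libraries, and sums over members have no test. Stem-loops were searched in the transcripts as 16 bases with a stem of 6 pairs and a loop of 4 bases. Runs were parted by gaps of over 200 kb. The share of 50-base windows found in no other annotated transcript measures what is a gene's own.

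Members named singly were, for each histone type, the 2 with the most counts, the 2 with the largest and the 1 with the smallest difference, the leading genes of the smaller clusters, the testis genes, and every tested member that did not pass. Other genes named were up to 3 of each list with the lowest p, and those said to be chosen after their values were seen. The remaining H4 genes and the members of pairs and of the 3′ end groups were named to describe those groups. The members and lists were chosen with earlier results of these data known.

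Alternatives were DESeq2 1.42.0, other scalings (RLE, upper quartile, 83 ribosomal protein genes, raw totals, members left out), other filters (none, or 1 CPM in 4 libraries), robust dispersion, the replicate number as a block, an adjusted p under 0.01, members with 50% or more windows of their own, CPM per kilobase, and leaving out each library. Leaving out Hist1h4d or members with long 3′ ends was chosen after seeing the data. Replicates of a group differed by more than counting noise (chi-square per degree of freedom 7.34 to 26.5), so none was treated as a copy of another.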

Additional observations from a re-analysis of the deposited data

Results flagged for a closer look

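In groups of 4 libraries a library was picked out where its gap to the nearest other library took more of the group's range than Dixon's critical value allows. This was looked for in 90 groups of values, from 23 named members and the sums over sets of members, and found in 10. Chance picks out about 1 in 20 groups.

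Hist1h2bg stood at 65.2 CPM in KO 4, below 72.6 to 72.7 CPM in the other libraries labelled KO. Hist1h2aa stood at 14.9 CPM in WT 2, above 8.42 to 8.55 CPM in the other libraries labelled WT, and Hist1h4i at 18.5 CPM in WT 2, above 10.03 to 11.2 CPM. Hist1h3g was low in the same library, at 0.581 CPM, with 1.28 to 1.42 CPM in the others. Hist1h3a stood at 3.31 CPM in WT 3, above 1.69 to 1.88 CPM, and the sum of the H3.1 genes at 8.13 CPM in WT 3, above 5.69 to 5.70 CPM. The sum over all members was low in WT 1, at 478 CPM, with 585 to 607 CPM in the others, and without Hist1h4d it was 343 CPM there, with 426 to 438 CPM in the others. The Hist2 sum, given once as a cluster and once as a run of the same genes, was high in KO 1, at 39.8 CPM, with 33.3 to 33.9 CPM in the other libraries labelled KO. In each of the sums the groups did not overlap.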

How the results depend on the processing

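The count of members higher was 42 to 44 and that of members lower 0 under each change of tool, scaling, filter, dispersion, threshold or library run on the tested members. It was 20 of 27 with only members that have 50% or more windows of their own, and 31 without the members with long 3′ ends, both on fewer genes. The log2 difference of the sum over all members was 1.65. Under upper-quartile scaling it was 1.42, under scaling on ribosomal protein genes 1.49, with raw totals 1.48, with members that have 50% or more windows of their own 1.33, per kilobase 1.86 and without Hist1h4d 1.91. It was 1.58 to 1.73 with a library left out. Over all genes, 47.3% of calls were higher. That share was 31.2%, 35.3% and 35.5% under the first 3 of these settings, which moved the median difference by -0.24, -0.17 and -0.17.

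The deviations of same-numbered libraries from their group means had correlations of 0.15, -0.21, -0.11 and 0.01. For KO 1 this value was above its highest with any other library labelled WT (0.08). For KO 2, KO 3 and KO 4 it was below that highest value (0.24, 0.19 and 0.03). The replicate numbers thus did not go with a shared deviation throughout. These correlations cannot show whether any libraries share an origin. The library names of KO 1 and WT 1 also share a number that the labels do not explain. With the replicate number as a block, 42 members were higher and 0 lower, and 11518 genes passed in all, against 12853 without the block. No member that passed, and neither Tet1 nor a sum whose groups were separate, changed sign. Of the members that did not pass, some were below 0 without passing: with raw totals Hist3h2ba (-0.0398), Hist3h2a (-0.105), Hist1h4m (-0.0137) and Hist1h4c (-0.0780), under scaling on ribosomal protein genes Hist3h2ba (-0.0539), Hist3h2a (-0.128) and Hist1h4c (-0.0639), and under upper-quartile scaling Hist3h2ba (-0.10), Hist3h2a (-0.16), Hist1h4m (-0.10), Hist1h4i (-0.0263) and Hist1h4c (-0.14). With a library left out Hist3h2a ran from -0.16 to 0.36, below 0 without KO 1, WT 1 or WT 4, and Hist1h4m from -0.29 to 0.58, below 0 without KO 4 or WT 1. The Hist3 sum was -0.11, -0.08 and -0.06 under upper-quartile scaling, scaling on ribosomal protein genes and raw totals, and -0.02 without KO 1. Besides the calls of Hist1h2aa and Hist1h2ba without KO 2 or WT 2, both passed with no low-count filter (edgeR adjusted p = 0.0482 and 0.00765) and Hist1h2ba passed with DESeq2 (adjusted p = 0.0438). No depth limit was reached for the sums, but members with under 50 counts in the libraries labelled WT together, such as Hist2h2ac with 49 and Hist2h2be with 24, have imprecise levels there. The cause of these shifts was not tested.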
